A study of Homo sapiens with 6 samples.

Results

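The genes described here are the 9 whose products make or shape the supply of thymidylate and the other deoxynucleotides: TYMS, SHMT1, TK1, DUT, DCTD, DTYMK, RRM1, RRM2 and RRM2B. They were taken by gene symbol from the tables of 6 RNA-seq libraries, and all 9 were found among 19942 gene symbols. All were made from HCT116, a human cell line grown from a colorectal carcinoma. Cells with acquired resistance to 5-fluorouracil are set against parental cells, named wild-type in the labels. Each kind received EHMT2 siRNA, aimed at the gene of the H3K9 methyltransferase G9a, or control siRNA, and a further library of each kind has no siRNA in its label and is called untransfected. This gives 6 groups of 1 library each: resistant with EHMT2 siRNA, resistant with control siRNA, resistant untransfected, and the same 3 treatments in parental cells. The labels used here give neither the siRNA sequences, nor the time after transfection, nor how the resistant cells were selected, whether they are 1 clone, or whether drug was present at harvest. The resistant cells are named alike in the sample titles, but the library name of the untransfected resistant sample spells them 5fu and those of the transfected ones 5fuR.

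Thymidylate, dTMP, is the only DNA precursor that cells must build by adding a methyl group to a deoxynucleotide. Thymidylate synthase, encoded by TYMS, transfers that group from methylene-tetrahydrofolate to dUMP. A metabolite of 5-fluorouracil, FdUMP, holds this enzyme in a dead complex with the folate, which stops the reaction. SHMT1 provides the folate with its carbon from serine, DCTD and DUT feed dUMP into the reaction, TK1 bypasses it by phosphorylating thymidine, and DTYMK carries dTMP from either route toward dTTP. Ribonucleotide reductase, made of the large subunit RRM1 and a small subunit, RRM2 or RRM2B, supplies the deoxynucleotides themselves. RRM2 is the small subunit of dividing cells in S phase, and RRM2B the small subunit that p53 can induce.

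The values are FPKM, fragments scaled to transcript length and to the mapped fragments of the library, which allow levels of different genes to be compared per length. The files hold no read counts, so depth and counting error are unknown. With 1 library per group a difference between a pair of libraries has no replicate check and no p-value. Differences are given as log2 ratios of FPKM with 1 added, called ratios below, and a gene counts as apart at 2-fold or more. For the labelled cell type, all 7 listed epithelial genes were at 8.04 FPKM or more in all 6 libraries, while 6 of 8 blood and stromal markers, PTPRC and CD3E among them, were listed at 0 in all. Of the other 2, COL1A1 reached 9.79 and CD68 4.99. EHMT2 itself was at 19.5% of the control siRNA level in resistant and 27.1% in parental cells with EHMT2 siRNA. The untransfected resistant library stands apart from the others in the region of chromosome 18 that holds TYMS, as described with that gene below. For EHMT2 siRNA and for the line, model fits are given with and without the untransfected libraries. Ranges and likeness over the 6 libraries are given only with the untransfected resistant library included. These are bulk samples, so a change in the share of cells in S phase and a change in RNA per cell cannot be told apart.

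Promoter sequences are shown for 4 members, because the results turn on them: TYMS as the drug target, TK1 and RRM2 as members at least 2-fold lower with EHMT2 siRNA in both lines, and DCTD as a member that was higher. Each is the 250 bases before the start site given by RefSeq on GRCh38.p14, written 5′ to 3′ on the strand of the gene. Capitals mark CCAAT, the box bound by NF-Y, or an E2F word (TTTCCCGC, TTTCGCGC, TTTGCCGC or TTTGGCGC), each read on both strands, and no match overlaps another here. The windows are chr18:657403-657652 on the plus strand for TYMS, chr17:78187053-78187302 on the minus strand for TK1, chr2:10122489-10122738 on the plus strand for RRM2, and chr4:182917387-182917636 on the minus strand for DCTD.
TYMS: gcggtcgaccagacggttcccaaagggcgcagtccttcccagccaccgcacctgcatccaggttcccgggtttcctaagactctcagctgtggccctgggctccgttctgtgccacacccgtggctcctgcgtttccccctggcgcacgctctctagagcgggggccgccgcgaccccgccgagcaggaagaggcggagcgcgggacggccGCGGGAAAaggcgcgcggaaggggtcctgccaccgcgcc
TK1: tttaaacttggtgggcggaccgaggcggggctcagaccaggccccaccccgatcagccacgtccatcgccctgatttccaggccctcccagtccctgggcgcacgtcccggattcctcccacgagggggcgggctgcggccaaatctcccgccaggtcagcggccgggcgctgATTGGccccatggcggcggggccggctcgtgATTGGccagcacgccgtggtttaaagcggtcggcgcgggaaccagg
RRM2: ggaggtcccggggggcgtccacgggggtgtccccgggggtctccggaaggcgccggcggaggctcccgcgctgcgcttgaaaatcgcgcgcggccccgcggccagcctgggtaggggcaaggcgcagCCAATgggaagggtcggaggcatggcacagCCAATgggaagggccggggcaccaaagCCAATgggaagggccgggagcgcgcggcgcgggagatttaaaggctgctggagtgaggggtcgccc
DCTD: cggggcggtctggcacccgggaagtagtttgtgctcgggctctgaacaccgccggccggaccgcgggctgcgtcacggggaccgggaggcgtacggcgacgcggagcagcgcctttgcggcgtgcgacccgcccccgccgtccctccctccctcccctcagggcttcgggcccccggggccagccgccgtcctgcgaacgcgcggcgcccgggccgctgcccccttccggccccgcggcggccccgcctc

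The RRM2 window held 3 CCAAT boxes, with first bases at −123, −93 and −66 from the start site. TK1 held 2, at −77 and −46, both on the opposite strand. SHMT1 and DTYMK held 2 each and RRM1 held 1, whereas TYMS, DUT and DCTD held none. Of 35116 RefSeq promoter windows of the same length, 32% held at least 1 CCAAT box, 9.53% at least 2 and 2.93% at least 3. The E2F words were found in 2.79% of the windows and, among the 8 members matched to the table, in TYMS, where TTTCCCGC lies on the opposite strand at −39 to −32. Genes with several RefSeq start sites were read at the site with most GENCODE 29 coding transcript starts nearby, taking the downstream site where sites tied. The other RRM2 window, from a start site of equal support further upstream, held 1 CCAAT box, the other TK1 window held 0, and 1 of the 4 DUT windows held 2 E2F words. A match is a run of letters and not a shown binding site.

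**Figure D1:**
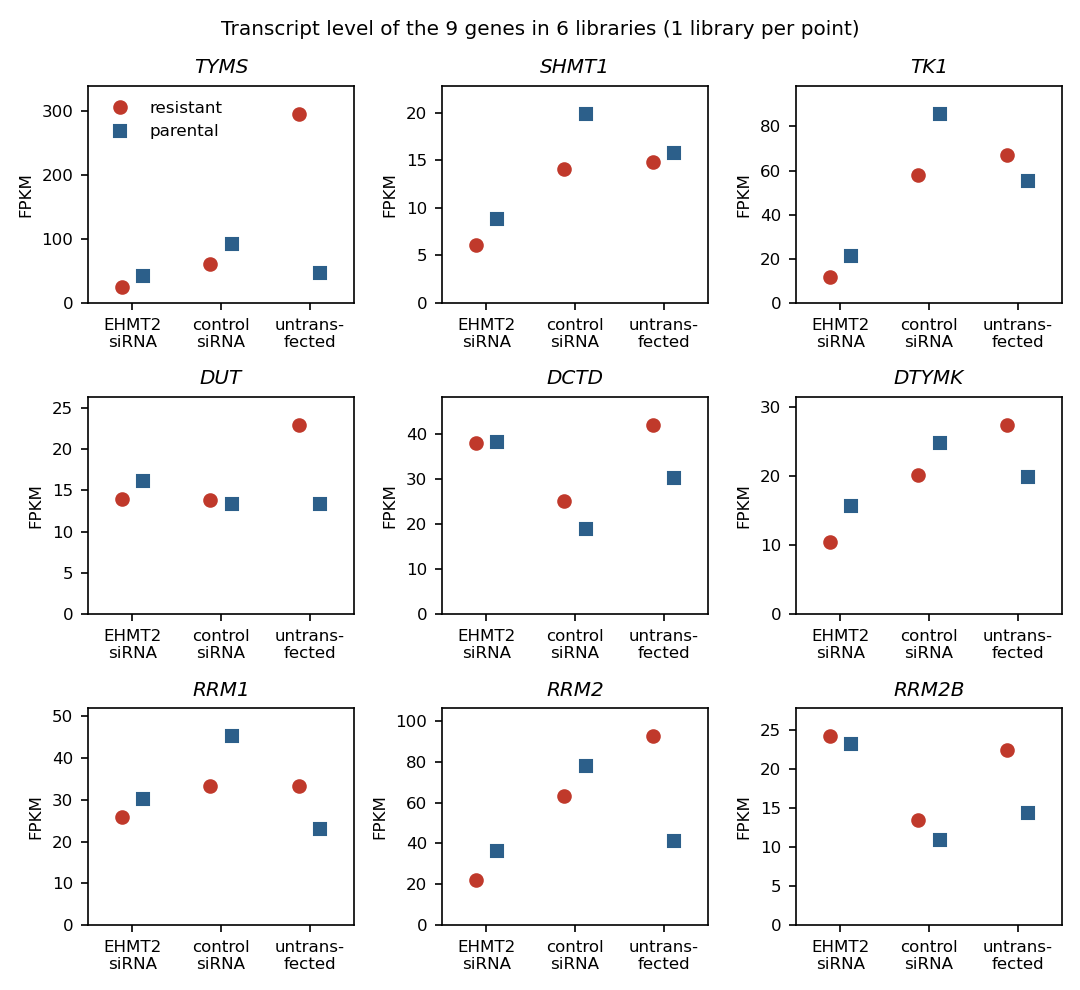
FPKM of each of the 9 genes (vertical axis, from 0, scaled per gene) in cells with EHMT2 siRNA, control siRNA or no transfection, with 1 point per library, resistant as circles and parental as squares. TK1 and SHMT1 are lowest in both EHMT2 siRNA libraries, RRM2B is highest there, and TYMS reaches 294 FPKM in untransfected resistant cells against 24.6 to 92.4 in the other 5 libraries.

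With EHMT2 siRNA the enzymes around thymidylate and the S-phase subunit of ribonucleotide reductase were lower than with control siRNA in both lines, and RRM2B and DCTD were higher. TK1, RRM2, TYMS and SHMT1 were at least 2-fold lower in both lines, which is 4 of the 9 members, against 2.35% of 11545 genes measured in both pairs. Counted singly, 4 members were 2-fold lower in resistant and 4 in parental cells, where 4.04% and 3.51% of all measured genes were. RRM2B was 2-fold higher in parental cells (7.48% of all genes), and 0 members were in resistant cells (5.22%). All 9 had the same sign in both lines, as did 82.5% of all genes, except that DUT at 0.02 in resistant cells became −0.04 when ratios were centred on the median of all genes, and 6 were below 0 in both, as were 36.3%. When each library was rescaled to the same FPKM sum, which raised the parental median of all genes to 0.20, TYMS (−0.99), SHMT1 (−0.97) and RRM2 (−0.96) came just inside 2-fold in parental cells, while TK1 (−1.83) stayed outside it and DCTD passed it at 1.09. The median ratio of the 9 was −0.89 in resistant and −0.63 in parental cells, beside 0.06 and 0.09 over all genes. The 2 knockdown pairs share no library.

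TK1, the thymidine kinase of dividing cells (ENSG00000167900, chromosome 17, 78174075 to 78187233), had the lowest ratios of the 9. Resistant cells had 11.6 FPKM with EHMT2 siRNA and 58.1 with control siRNA, and parental cells 21.4 and 85.5, or 19.9% and 25.0% of the control level. Both EHMT2 siRNA libraries lie below the other 4, of which the lowest is the 55.3 of untransfected parental cells. The ratios were −2.23 in resistant and −1.95 in parental cells, the 12th lowest of 11750 genes and the 19th lowest of 11948. In an additive limma fit over the 6 libraries, with line and treatment as terms, TK1 was lower by an estimate of −2.09 (SE 0.30), with an adjusted p of 0.0529 (Benjamini-Hochberg over 11521 genes). That is the lowest adjusted p of any gene for this contrast, and it misses the threshold of 0.05, but passes it at 0.0475 when only genes at 5 FPKM or more in 3 libraries are tested.

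TYMS (ENSG00000176890, chromosome 18, 657604 to 673578) had an FPKM of 24.6 with EHMT2 siRNA and 61.2 with control siRNA in resistant cells, a ratio of −1.28. Parental cells had 42.1 and 92.4, giving −1.12. The untransfected parental library stood at 46.1, close to the parental EHMT2 siRNA library, so in parental cells the low member of the pair is not below the untransfected level by 2-fold. Of its exonic bases, 46.6% are also exonic in ENOSF1 or TYMSOS, which lie on the opposite strand, and no source used here says whether strand was used in counting. Its level is therefore uncertain. ENOSF1 had 5.47 FPKM with EHMT2 siRNA and 6.16 with control siRNA in resistant cells, and 9.81 and 11.0 in parental cells.

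SHMT1, the cytosolic serine hydroxymethyltransferase (ENSG00000176974, chromosome 17, 18327860 to 18363563), was the most even of the 4 between the lines. It had 6.14 FPKM with EHMT2 siRNA and 14.1 with control siRNA in resistant cells, and 8.85 and 19.8 in parental cells, with a ratio of −1.08 in each. The untransfected libraries stood at 14.9 in resistant and 15.8 in parental cells, so that both EHMT2 siRNA libraries were below all 4 others. DTYMK, thymidylate kinase (ENSG00000168393, chromosome 2, 241675742 to 241686991), followed with 10.4 against 20.1 FPKM in resistant and 15.6 against 24.7 in parental cells, ratios of −0.89 and −0.63. The 2 EHMT2 siRNA libraries were its lowest as well, although parental untransfected cells, at 19.8, were close to the resistant control.

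The enzymes that feed dUMP into the reaction did not follow TYMS. DCTD, dCMP deaminase (ENSG00000129187, chromosome 4, 182890060 to 182917936), had 38.1 FPKM with EHMT2 siRNA and 25.0 with control siRNA in resistant cells, and 38.1 and 18.9 in parental cells. Its ratios were 0.59 and 0.98. DUT, which hydrolyses dUTP and so keeps uracil out of DNA (ENSG00000128951, chromosome 15, 48331011 to 48343373), had 14.0 and 13.8 FPKM in resistant and 16.1 and 13.4 in parental cells, ratios of 0.02 and 0.25. DUT was the flattest of the 9 over the 6 libraries, with 22.9 in untransfected resistant cells as its highest value and 13.3 in untransfected parental cells as its lowest, a 1.72-fold range. For comparison, the range was 11.98-fold for TYMS, 7.38-fold for TK1 and 4.20-fold for RRM2. The highest TYMS and RRM2 values were also those of untransfected resistant cells. DUT shares 14.5% of its exonic bases with an antisense gene.

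The subunits of ribonucleotide reductase differed in direction. RRM1, the large subunit that holds the catalytic site (ENSG00000167325, chromosome 11, 4094707 to 4138876), had 25.8 FPKM with EHMT2 siRNA and 33.4 with control siRNA in resistant cells, and 30.2 and 45.2 in parental cells, ratios of −0.36 and −0.57. RRM2, the S-phase small subunit (ENSG00000171848, chromosome 2, 10120698 to 10131419), had 22.0 and 63.3 FPKM in resistant cells and 36.5 and 78.1 in parental cells, ratios of −1.48 and −1.08. RRM2B, the p53-inducible small subunit (ENSG00000048392, chromosome 8, 102204502 to 102239118), went the other way, with 24.2 and 13.5 FPKM in resistant cells and 23.3 and 10.9 in parental cells, ratios of 0.80 and 1.03. RRM2 shares 20.2% of its exonic bases with the overlapping gene AC007240.1 of the same strand, so its level is uncertain, and RRM2B shares none.

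The 2 small subunits were thus closest in level with EHMT2 siRNA. The FPKM of RRM2 divided by that of RRM2B came to 0.908 for EHMT2 siRNA and 4.70 for control siRNA in resistant cells. In parental cells it was 1.57 and 7.18. Untransfected cells had 4.11 in the resistant and 2.85 in the parental library, so the 2 EHMT2 siRNA libraries hold the lowest of the 6 values. RRM2B messages made up 52.4% of both small subunits with EHMT2 siRNA and 17.5% with control siRNA in resistant cells, and 39.0% and 12.2% in parental cells. These are levels of message per length and say nothing of protein.

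**Figure D2:**
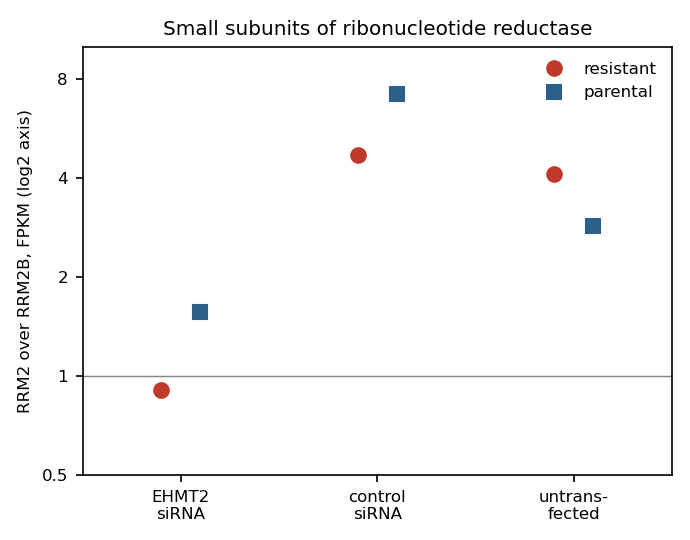
FPKM of RRM2 divided by FPKM of RRM2B (vertical log2 axis) in cells with EHMT2 siRNA, control siRNA or no transfection, 1 point per library, resistant as circles and parental as squares, with a line at 1. The EHMT2 siRNA libraries sit at 0.908 and 1.57, below the 4 others, which lie between 2.85 and 7.18.

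Untransfected cells give a further level to read the knockdown against, and this comparison was added after the data were seen. TK1 was at least 2-fold lower with EHMT2 siRNA than in untransfected cells of both lines, with ratios of −2.44 in resistant and −1.33 in parental cells. In resistant cells TYMS (−3.53), RRM2 (−2.02), DTYMK (−1.32) and SHMT1 (−1.15) were 2-fold lower as well, so that 5 of 9 members were, where 7.4% of all genes were. In parental cells TK1 alone was, where 5.79% of all genes were, and TYMS (−0.13) and RRM2 (−0.16) were near their untransfected level. RRM2B was at 0.10 in resistant and 0.66 in parental cells, and DCTD at −0.14 and 0.32. The 2-fold gap of RRM2B in parental cells against control siRNA thus does not hold against untransfected cells. These pairs and the pairs against control siRNA share the EHMT2 siRNA libraries.

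In the limma fit over all 6 libraries 0 of the 9 members passed for EHMT2 siRNA, and 0 of 11521 genes did (0%). At an unadjusted p under 0.05 were 6 members, TK1, SHMT1, RRM2B, DCTD, RRM2 and DTYMK, and 3060 genes (26.6%). After TK1, SHMT1 came nearest to the threshold, with an estimate of −1.08 (SE 0.19) and an adjusted p of 0.0584 in limma. The error term of this fit is how differently the lines respond, and the untransfected pair adds much to it for TYMS, whose estimate was −1.20 with an SE of 0.84. That estimate was −0.31 without the resistant EHMT2 siRNA library and −2.09 without the parental one, and for RRM2 (−1.28 over 6 libraries) these were −0.71 and −1.84. Without the untransfected libraries, in a fit over the 4 siRNA libraries that was among the alternatives, 8 of 9 members passed the adjusted threshold, 6 falling and 2 rising, beside 42.5% of all genes (18.7% falling and 23.8% rising). In that limma fit TYMS fell by 1.20 (SE 0.11, adjusted p = 0.001), RRM2 fell by 1.28 (SE 0.13, adjusted p = 0.00132) and TK1 fell by 2.09 (SE 0.12, adjusted p = 0.00075). SHMT1 fell by 1.08, DTYMK fell by 0.76 and RRM1 fell by 0.46, with adjusted p-values of 0.00162, 0.00488 and 0.0199. RRM2B rose by 0.92 (SE 0.12, adjusted p = 0.00256) and DCTD by 0.78 (SE 0.13, adjusted p = 0.00535), and DUT did not pass (0.14, SE 0.13, adjusted p = 0.418). It has 1 residual degree of freedom before moderation, and its p-values measure only how alike both lines responded in these libraries.

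The lines gave similar sizes for this contrast. The ratio in resistant cells minus that in parental cells lay between −0.40 for RRM2 and 0.21 for RRM1, and was −0.17 for TYMS and −0.28 for TK1. Over 11545 genes the absolute difference had a median of 0.21 and a 90th percentile of 0.55, so none of the 9 was beyond the latter. With 1 library per group this difference could not be tested.

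**Figure D3:**
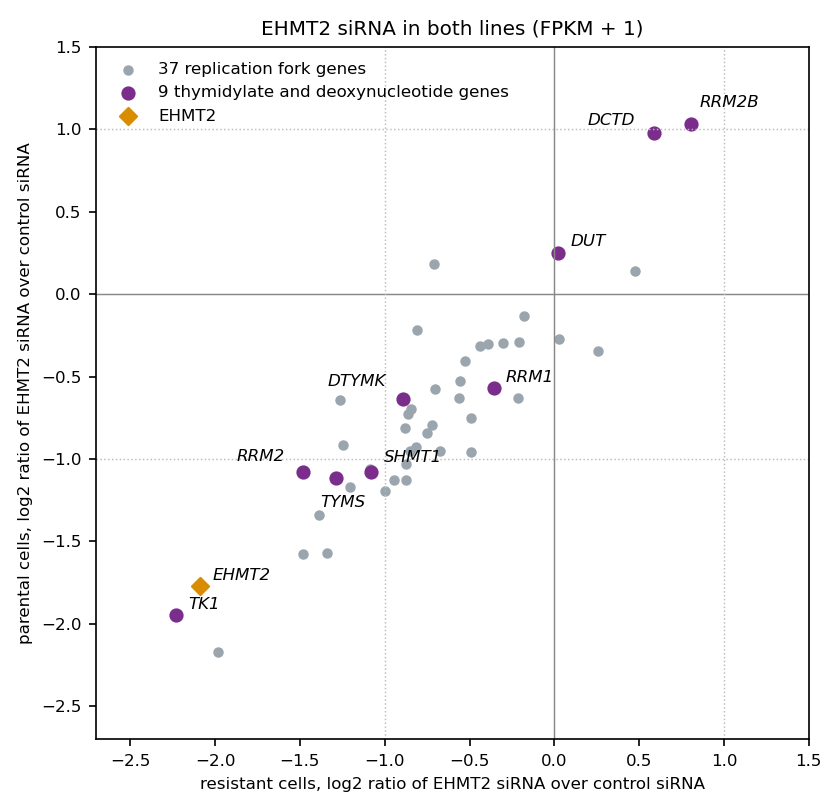
Log2 ratio of EHMT2 siRNA over control siRNA in resistant cells (horizontal axis) and parental cells (vertical axis) for the 9 members, 37 replication fork genes and EHMT2, with dotted lines at 2-fold. TK1 lies beside EHMT2 at the low end, TYMS, RRM2 and SHMT1 lie past 2-fold in both lines, and RRM2B (0.80 and 1.03) and DCTD (0.59 and 0.98) lie at the opposite corner.

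Genes of the replication fork, which mark S phase, were lower than with control siRNA beside these members. Of 37 listed genes 34 were below 0 in resistant and 35 in parental cells with EHMT2 siRNA, with a median of −0.75 in each line. Among all genes 36.3% were below 0 in both lines. At least 2-fold lower were 8 and 10 of them, where 4.04% and 3.51% of all genes were. Against untransfected cells, however, their median was −1.41 in resistant and only −0.13 in parental cells. In that comparison 28 (resistant) and 1 (parental) of the 37 were at least 2-fold lower, where 7.4% and 5.79% of all genes were. Above 0 were 2 in resistant and 13 in parental cells. In limma's 4-library fit 28 of them fell and 0 rose, beside 18.7% and 23.8% of all genes, and 0 passed over 6 libraries. MCM5, a subunit of the replicative helicase, stood at −1.98 (resistant) and −2.17 (parental), and MCM3, another, at −1.48 and −1.58. RPA1, which coats single-stranded DNA, was above 0 in both (0.47 and 0.14). Among the E2F family and RB pocket proteins, which control the S-phase genes, 6 of 13 fell and 1 rose in the 4-library fit, which called 42.5% of all genes in either direction. E2F1, an activator, had ratios of −0.95 and −1.15, and E2F6, a repressor, 0.71 and 1.03. The part of cell division in the lower level of TK1, RRM2 and TYMS was not tested.

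Among p53 targets, the group to which RRM2B belongs but in which it was not listed, 15 of 24 tested genes rose and 0 fell by limma over 4 libraries, where 23.8% of all genes rose and 18.7% fell, and 0 passed over 6. Their median ratio was 0.41 in resistant and 0.82 in parental cells. Of the 24, 2 and 7 genes were at least 2-fold higher, where 5.22% and 7.48% of all genes were. AEN, an exonuclease of apoptosis, had 1.00 and 1.10, and TIGAR, which lowers glycolytic flux, 0.97 and 1.03. GDF15, a secreted stress cytokine, was below 0 in both (−0.85 and −0.14), as was BBC3, the BH3 protein PUMA (−0.45 and −0.20). A list of 8 thioredoxin and glutaredoxin system genes was drawn up as electron donors of ribonucleotide reductase, and it includes mitochondrial ones such as TXNRD2. All 8 were above 0 in resistant and 7 of 8 in parental cells, where 46.2% of all genes were above 0 in both. In the 4-library fit 5 of them rose and 0 fell. Which of them serve this reductase was not tested. Their median was 0.51 in resistant and 0.58 in parental cells, beside 0.06 and 0.09 over all genes. TXNRD2, mitochondrial thioredoxin reductase, had ratios of 1.72 and 1.19, and GSR, glutathione reductase, 0.65 and 0.55.

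Other enzymes of the pathway are counted here in the 4-library fit, where 18.7% of all genes fell and 23.8% rose, so that shares near these say nothing particular of a list. Of 17 tested genes of the folate cycle 7 fell and 1 rose, at a median of −0.26 (resistant) and −0.30 (parental). SLC25A32, which carries folate into mitochondria, had ratios of −1.21 and −0.69, and SLC19A1, the reduced folate carrier, −0.78 and −0.70. Of 13 salvage and kinase genes 3 fell and 1 rose. NME4, a mitochondrial nucleoside diphosphate kinase, was at −2.23 and −2.43, although untransfected cells had only 1.59 FPKM in the resistant library, against 27.7 in the parental one. The nucleoside transporter SLC29A1 was at −1.39 in each line, and GUK1, guanylate kinase, at 1.11 and 0.89. Of 14 genes of breakdown and pool cleaning 5 rose and 4 fell. NT5E, a surface 5′-nucleotidase, was at 1.49 and 1.91, DCTPP1, which removes dCTP and its modified forms, at −1.004 and −1.15, and CDA, cytidine deaminase, at −0.96 and −0.98.

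The line comparison asks how resistant cells differ from parental cells in these genes, and the answer differed between treatments. In untransfected cells 8 of 9 members were higher in the resistant library. TYMS and RRM2 were at least 2-fold higher, as were 3.48% of all genes. With control siRNA 3 of 9 were above 0 and with EHMT2 siRNA 1 of 9, and 0 were 2-fold apart in either pair, where 2.56% and 3.09% of all genes were. The median of the 9 was −0.46 with EHMT2 siRNA, −0.30 with control siRNA and 0.51 without transfection. Replication fork genes had medians of −0.45, −0.50 and 0.73 in the same order, beside −0.05, −0.02 and 0.07 over all genes. The share of all genes above 0 in each pair is not given here, so the counts of sign are read only beside these medians. The part of cell division in the line ratios was not tested.

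**Figure D4:**
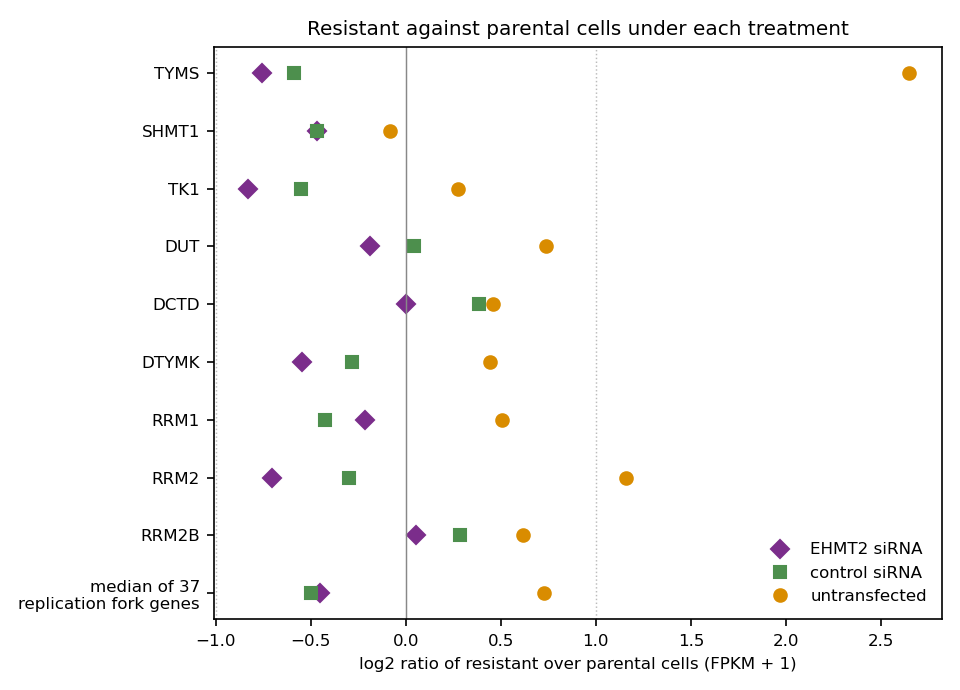
Log2 ratio of resistant over parental cells (horizontal axis) for the 9 members and the median of 37 replication fork genes, with EHMT2 siRNA (diamonds), with control siRNA (squares) and untransfected (circles), and dotted lines at 2-fold. The circles lie to the right of the squares in each row, most of all for TYMS at 2.65.

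Without transfection TYMS stood at 294 FPKM in the resistant and 46.1 in the parental library, a ratio of 2.65 and the 16th highest of 11731 genes. With control siRNA the ratio was −0.59 and with EHMT2 siRNA −0.76. The step of −3.23 between the untransfected and control siRNA ratios was beyond the 90th percentile of 1.17 over 11386 genes. For RRM2 the untransfected libraries gave 92.5 FPKM (resistant) and 41.0 (parental), a ratio of 1.16, which was −0.30 under control siRNA and −0.70 under EHMT2 siRNA. Its step was −1.46, while those of the other 7 lay between −0.93 for RRM1 and −0.07 for DCTD. RRM2B was above 0 in all 3 pairs, at 0.06 with EHMT2 siRNA, 0.28 with control siRNA and 0.62 untransfected. SHMT1 was below 0 in all 3, at −0.46, −0.47 and −0.08, although the last became 0.15 with libraries rescaled to the same sum. Those are 2 members of 9 with a single sign, beside 26.6% of all genes.

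The neighbours of TYMS on chromosome 18 were higher with it in the untransfected resistant library. The 10 measured genes nearest to TYMS had a median line ratio of 1.56 in untransfected cells, between 1.23 for YES1, a SRC family kinase, and 2.58 for THOC1, an mRNA export factor. The same 10 had a median of 0.05 with control siRNA and −0.05 with EHMT2 siRNA. TYMS at 2.65 was above all 10 in untransfected cells, while with EHMT2 siRNA it was below all 10, whose lowest was ENOSF1 at −0.74. With control siRNA it lay inside their range of −0.75 to 0.92. USP14, a proteasome-bound deubiquitinase, stood at 60.8 FPKM in the resistant and 10.4 in the parental untransfected library, but at 13.5 and 14.4 with control siRNA. Of the 8 genes listed for the locus, COLEC12, CETN1 and ADCYAP1 were listed at 0 in all 6 libraries and CLUL1 stayed under 1 FPKM. The part of this region in the level of TYMS was not tested, and RRM2, on chromosome 2, lies outside it.

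**Figure D5:**
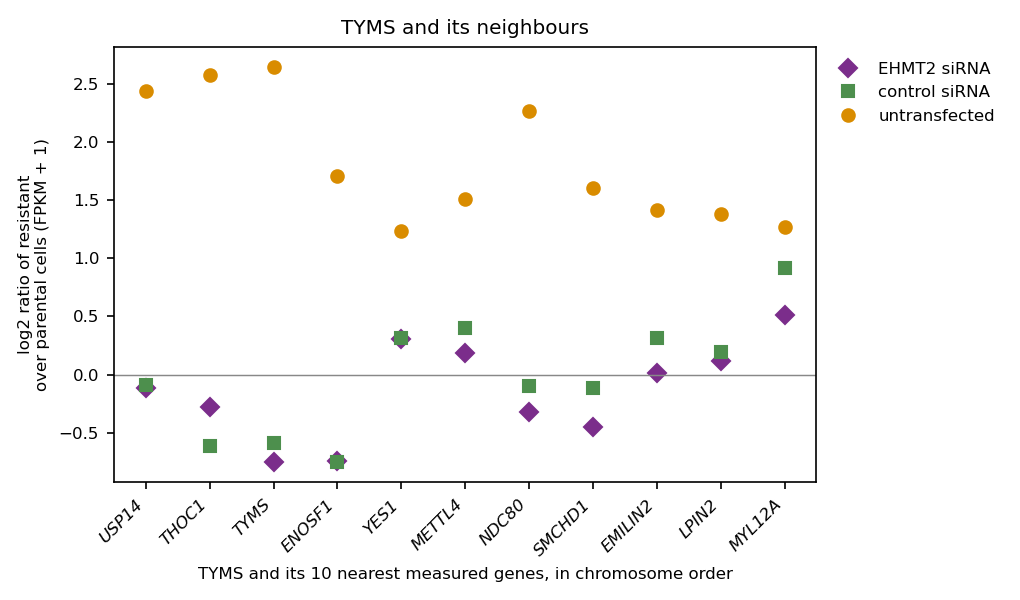
Log2 ratio of resistant over parental cells (vertical axis) for TYMS and its 10 nearest measured genes in chromosome order, with EHMT2 siRNA (diamonds), with control siRNA (squares) and untransfected (circles). All 11 circles lie at 1.23 or above, while the squares and diamonds lie between −0.76 and 0.92.

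In the 6-library limma fit 0 of 9 members and 0 of 11521 genes (0%) passed for the line, with 0 members and 603 genes (5.23%) at an unadjusted p under 0.05. Without the untransfected libraries TK1 fell by 0.69 in resistant cells (SE 0.12, adjusted p = 0.0258) and TYMS by 0.67 (SE 0.11, adjusted p = 0.0238) in the 4-library limma fit, in which 2 of 9 members fell and 4.47% of all genes did, with 8.96% called in either direction. The direction for TYMS thus rests on which libraries are read, since the 6-library estimate was 0.44 (SE 0.68, adjusted p = 0.975).

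Control siRNA against untransfected cells separated the lines too. In resistant cells 8 of 9 were below 0, TYMS by most with 61.2 against 294 FPKM (−2.25), RRM2 with 63.3 against 92.5 (−0.54). In parental cells 7 of 9 members were above 0 with control siRNA, among them TYMS with 92.4 against 46.1 FPKM (0.99), RRM1 with 45.2 against 23.1 (0.94), RRM2 with 78.1 against 41.0 (0.91) and TK1 with 85.5 against 55.3 (0.62). TYMS in resistant cells was the only member 2-fold apart in either pair, where 8.18% of all genes in resistant and 3.03% in parental cells were. The median of the 9 members was −0.54 in resistant and 0.31 in parental cells, beside −0.05 and 0.04 over all genes. Shares of all genes below or above 0 in each line alone are not given here, so the counts of sign are read only beside these medians. Rescaling libraries to the same FPKM sum moved the parental median of all genes to 0.20. The median of the replication fork genes was −0.56 in resistant cells and 0.69 in parental ones. DCTD and RRM2B were below 0 in both lines, as were 23.5% of all genes. The 2 members were at −0.72 and −0.70 in resistant and −0.65 and −0.37 in parental cells. Both genes were thus higher with EHMT2 siRNA than with a control siRNA that was itself below the untransfected level. In the 6-library limma fit 0 of 9 members passed for this contrast, where 0.0434% of all genes did. At an unadjusted p under 0.05 were 2 members, DCTD (−0.69) and RRM2B (−0.54), and 813 genes (7.06%).

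Over all 6 libraries the 9 genes fell into unlike patterns. Likeness was measured as the root mean square distance between log2 values centred on their mean, over 6 libraries and 8238 other genes at a mean of 5 FPKM or more, and it is a description with no test. Among pairs of members, DCTD and RRM2B were closest at 0.13, followed by SHMT1 and DTYMK at 0.21 and DTYMK and RRM2 at 0.30. The gene closest to TK1 was EHMT2 itself, at 0.10, where TK1 departs from its own mean by 0.99. RRM2 was closest to SPC25, a kinetochore subunit (0.10), PTTG1, securin (0.13), and MCM4, of the replicative helicase (0.15). TYMS had no close match, its nearest genes being OAS3, an interferon-induced synthetase (0.35), SERINC2 (0.36) and NDC80 (0.36), a kinetochore subunit and one of its chromosome 18 neighbours. SHMT1 was closest to SNRNP40, DEPDC1 and SERF1B (0.07, 0.09 and 0.10), and RRM2B to GSK3B, ATP5MPL and LAMP2 (0.08, 0.08 and 0.09). For DCTD these were TMEM59, SLC15A4 and TFE3 (0.07 to 0.10), for DTYMK ITGB3BP, SLC9A3R2 and ZDHHC12 (0.07 to 0.08), for RRM1 MAZ, TOMM40 and ATAD3A (0.08 to 0.10) and for DUT FRAS1, PRKAB1 and SCAF8 (0.05 to 0.07).

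The order of levels among the members also changed between libraries. Per length, TYMS had the highest FPKM of the 9 in the parental library with EHMT2 siRNA (42.1), the parental library with control siRNA (92.4) and the untransfected resistant library (294). DCTD led with EHMT2 siRNA in resistant cells (38.1), RRM2 with control siRNA in resistant cells (63.3), just above TYMS at 61.2, and TK1 in untransfected parental cells (55.3). The FPKM of TYMS divided by that of TK1, the de novo enzyme over the salvage kinase, came to 2.12 for EHMT2 siRNA and 1.05 for control siRNA in resistant cells, and 1.97 and 1.08 in parental cells. Untransfected cells had 4.38 in the resistant and 0.834 in the parental library. The summed FPKM of all 9 members came to 177 for EHMT2 siRNA and 302 for control siRNA in resistant cells, against 232 and 389 in parental cells, and 617 and 259 in untransfected resistant and parental cells. Without TYMS the untransfected sums were 322 and 213.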

How the data were processed

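Total RNA of 6 HCT116 cultures went into TruSeq v2 libraries, per the labels' protocols. Tools named in the submitters' processing notes are cutadapt 4.9, FastQC 0.12.1, HISAT2 2.2.1 and StringTie 2.1.1, with build GRCh38 and no order. The authors deposited FPKM values, 1 table per library, with no counts, so depth is unknown. No source used here gives the annotation, filters or strand setting. The series text speaks of replicates, but 1 library per group was analysed here.

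Where rows shared a symbol, that with the highest mean was used. Ratios are log2(FPKM + 1) differences, which understate changes of low genes, over genes at 1 FPKM or more in either library. An additive model of line and treatment was fitted with limma 3.58.1 (R 4.3.3, mean-variance trend) to 11521 genes at 1 FPKM or more in 3 libraries, with Benjamini-Hochberg adjustment at 0.05 over all of them. It has 2 residual degrees of freedom with 6 libraries and 1 with the 4 siRNA libraries. The 6-library fit was tested on simulated data, where it recovered 4-fold but not 2-fold changes, and the 4-library fit was not simulated. Coordinates and overlaps are from GENCODE 29, promoters from RefSeq, where 8 of 9 members matched.

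Beside the members, the 2 highest and 2 lowest genes of each list by the smaller of both knockdown ratios could be named, and the 3 genes nearest to each member. A result that this rule takes is not reported here. The members and lists were chosen with earlier results of these data known. Alternatives were a pseudocount of 0.1, other filters, scalings and fold thresholds, no trend, the 4 siRNA libraries and leaving out each library. EHMT2 siRNA against untransfected cells was added after the data were seen.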

Additional observations from a re-analysis of the deposited data

Results flagged for a closer look

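The 4 results given here had opposite directions, each past 1.5-fold, in pairs that ask the same question. With 1 library per group none of these differences was tested. TYMS was lower with control siRNA than in untransfected resistant cells (−2.25) and higher in parental cells (0.99). The resistant over parental ratio of TYMS was −0.59 with control siRNA, which only just passed 1.5-fold, and 2.65 in untransfected cells. It was −0.76 with EHMT2 siRNA, which shares the untransfected pair with the previous result. The same ratio of RRM2 was −0.70 with EHMT2 siRNA and 1.16 in untransfected cells. All of them rest on the untransfected libraries.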

How the results depend on the processing

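Members that passed for EHMT2 siRNA numbered 0 in the 6-library limma fit, 8 with the 4 siRNA libraries, 1 (TK1) with a filter of 5 FPKM, and 0 to 8 when each library was left out in turn. The counts over all genes were 0, 4902, 263 and 0 to 4904. Leaving out either untransfected library gave the 4-library estimates, since the other untransfected library then informs no contrast. Estimates without the parental and the resistant EHMT2 siRNA library were −2.09 and −0.31 for TYMS, −1.84 and −0.71 for RRM2, −1.08 and −0.45 for DTYMK, and −0.15 and 0.43 for DUT. RRM1 was −0.75 without the resistant and −0.18 without the parental control siRNA library. The other 4 members moved by less than 1.5 times. For the line, 2 members and 1032 genes passed with the 4 libraries, and 0 to 2 and 0 to 1034 without single libraries. For control siRNA against untransfected cells, 3 genes passed with a pseudocount of 0.1, and 0 to 5 members and 3 to 2059 genes without single libraries.

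At 1.5-fold, members apart between the lines numbered 3 with EHMT2 siRNA, 1 with control siRNA and 4 in untransfected cells, where 4-fold left 1. For EHMT2 siRNA they numbered 7 in resistant cells at 1.5-fold and 1 at 4-fold, and in parental cells 3 with libraries rescaled to the same sum, 0 at 4-fold and 1 against untransfected cells. For control siRNA they numbered 4 in resistant cells at 1.5-fold, and in parental cells 5 at 1.5-fold, 3 with the same sum and 1 with a pseudocount of 0.1. The shares of all genes at 1.5-fold and 4-fold are not given here, so counts at those folds say nothing particular of the members. Rescaling to the same sum changed the genes 2-fold higher and lower to 1168 and 301 in the parental knockdown pair, against 894 and 419 as deposited. In the untransfected line pair these were 726 and 307, against 408 and 460, and for control siRNA in parental cells 241 and 158, against 111 and 242. With line as a term, the fits compared treatments within each line. No further pairing by replicate was possible because the groups share only replicate number 1. Depth is unknown, so no counting error can be given.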
